A study of Bombyx mori with 9 samples.

Results

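The mitochondrial respiratory chain and the ATP synthase were followed through 15 genes of the silkworm, Bombyx mori, out of 14623 genes with BGIBMGA identifiers. They were chosen by words in the deposited gene descriptions: ATP synthase, cytochrome c, NADH dehydrogenase, NADH-ubiquinone, ubiquinol or succinate dehydrogenase, with the vacuolar and V-type pumps left out. Of the 15, 4 were assigned by the words of their descriptions to complex I, 1 to complex III, 2 to complex IV and 8 to the ATP synthase. No row (0) named a subunit of complex II or cytochrome c itself. Since 1099 of the 14623 genes carried a description, these 15 are the named part of the machinery and not all of it. Of the 15, 13 passed the filter on low values described below.

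The respiratory chain passes electrons from NADH and succinate to oxygen through complexes in the inner mitochondrial membrane. Complexes I, III and IV pump protons across that membrane as they do so. The ATP synthase lets the protons return and uses their flow to make ATP: the gamma subunit forms the rotating stalk inside a head of alpha and beta subunits, and the beta subunits hold the catalytic sites. The silk gland makes and secretes very large amounts of fibroin and sericin late in larval life, a synthesis that consumes ATP and GTP.

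The libraries came from silk glands of 3 pure strains, A306, XH and A798, with 3 libraries of total RNA per strain. All strains were reared alike at 25 °C and 71% humidity and sampled on day 5 of the fifth larval instar; no treatment or transgene is named for any of them. A798 is the strain against which the submitters set the others. The labels do not say whether a library came from 1 animal or a pool, or which region of the gland was taken.

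The unit was FPKM, in which fragments are scaled to the length of the transcript and to all mapped fragments of the library, so levels can be set against each other between genes, while the depth of a library is unknown. Libraries summed to between 502510 and 587872 FPKM, and ribosomal RNA models took 5.05% to 19.6% of the sum. The 20 most abundant features took 35.0% to 46.1%. Markers of the silk gland, among them fibroin light chain, P25 and the fibroin heavy chain, were present in every library, while no sericin row was matched. Their sum ranged from 28657 to 28843 FPKM in A306, from 37174 to 38935 FPKM in XH and from 24341 to 25741 FPKM in A798. Most of it was fibroin light chain, with means of 23739, 30547 and 20106 FPKM in A306, XH and A798. The fibroin heavy chain did not follow the sum. Its means were 268, 1479 and 854 FPKM, lowest in A306. The labels state 2 gland weights for each sample, whose mean was lowest in A306 (0.688 ± 0.0207 g), higher in XH (0.974 ± 0.0085 g) and highest in A798 (1.28 ± 0.0309 g; SD, n = 3).

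Tests were run with limma on log2(FPKM + 1) over 4636 features with at least 1 FPKM in at least 3 of the 9 libraries. Changes are log2 differences on that scale. "Rose" and "fell" are used at an adjusted p below 0.05 (Benjamini-Hochberg over all 4636 features). The deposited scale itself differed between strains. The median change of all features was 0.31 for A306 against A798, 0.19 for XH against A798 and 0.12 for A306 against XH. It was 0.01, -0.00 and 0.02 after scaling by a trimmed mean of ratios (TMM), which assumes that most features do not differ. Each change below is therefore also given relative to the median of all features, or after TMM scaling, where this matters. In bulk RNA, fewer cells of a type and less RNA per cell cannot be told apart.

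As deposited, the summed level of the machinery was highest in A306 and lowest in A798. Against A798, 8 of the 13 genes rose in A306 and 0 fell (limma; 9 and 0 at an unadjusted p under 0.05), where 37.9% of all features rose and 9.60% fell. In XH 5 of 13 rose and 0 fell (5 and 0 unadjusted), beside 25.7% and 8.02% of all features. Between A306 and XH, 7 rose and 1 fell in A306, beside 23.1% and 13.4%. These shares include many features of low level. Among the 2690 features with at least 5 FPKM in at least 3 libraries, the counts of members were the same. The shares of features that rose and fell were then 50.30% and 10.48%, 35.35% and 10.48%, and 31.04% and 15.09%. The members' counts of rises lie nearer to these shares. In each comparison with XH, 1 of the counts, among the 5 that rose and the 1 that fell, is the gamma subunit gene, which passed the filter through its XH values alone and so had to differ. Without features at 0 in a whole strain, 4 of 12 rose and 0 fell in XH against A798 and 7 of 12 rose and 0 fell in A306 against XH. The comparisons against A798 share its 3 libraries. The members' median change was 0.41, 0.22 and 0.20 in these comparisons, against 0.31, 0.19 and 0.12 over all features. These medians include gamma. Without features at 0 in a whole strain they were 0.52, 0.20 and 0.23, against 0.31, 0.20 and 0.12 over all features. After TMM scaling the counts were 2 higher and 1 lower, 2 higher and 1 lower, and 3 higher and 1 lower, where 16.5% and 17.2%, 13.3% and 14.5%, and 16.8% and 16.0% of all features were called higher and lower. Median centring gave 3 and 2, 2 and 1, and 4 and 1, beside 16.4% and 18.0%, 12.1% and 15.3%, and 18.6% and 15.8% of all features. On both scales gamma is again 1 of the 2 higher in XH against A798 and the 1 lower in A306 against XH. Under median centring it is also 1 of the 2 lower in A306 against A798, although all its values there were 0 before the shift. The calls that held under all 24 alternative settings were UQCRC2 in both comparisons against A798 and the beta subunit gene BGIBMGA012549 in A306 against both other strains.

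**Figure D1:**
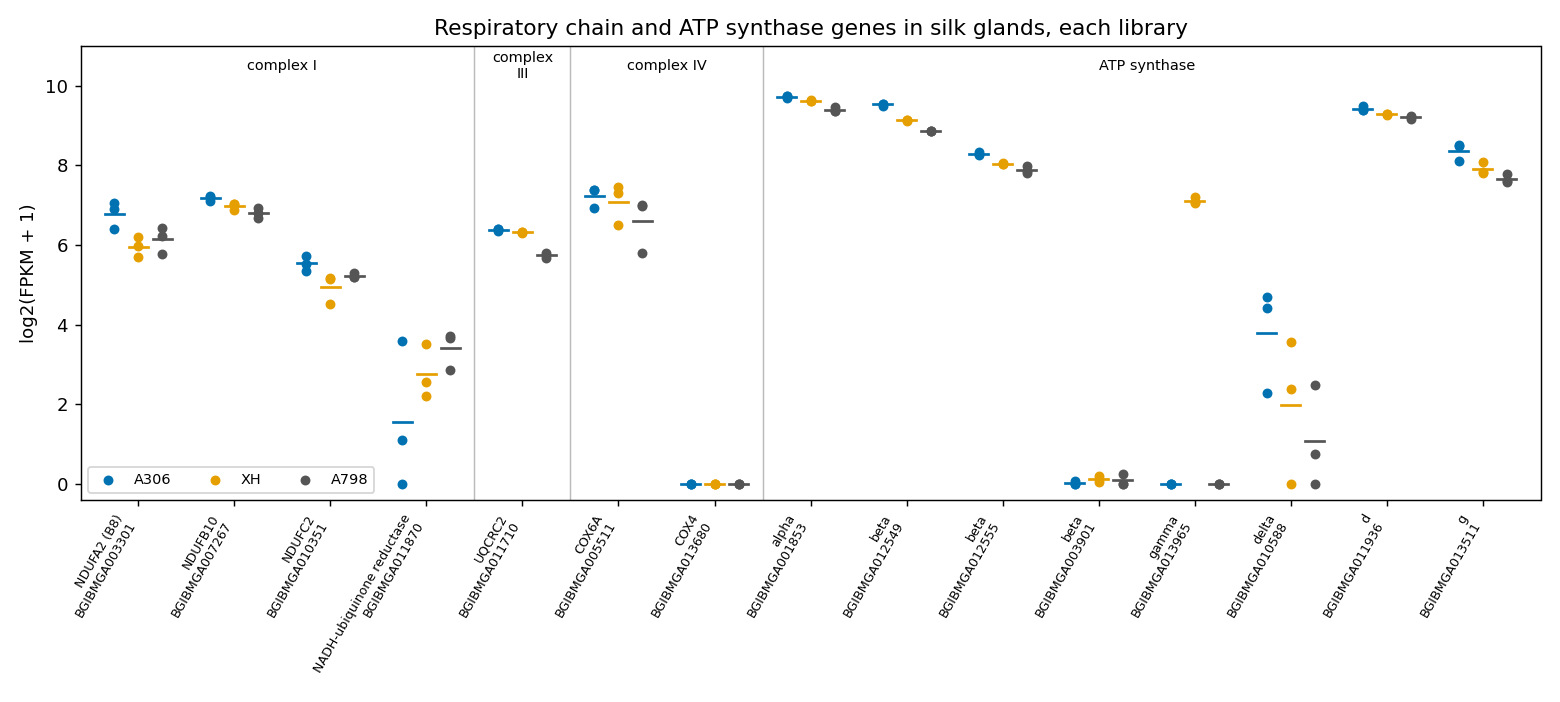
Expression of the 15 genes as log2(FPKM + 1) in each library, by complex; points are libraries and bars the mean of each strain (n = 3). The gamma subunit gene is seen in XH alone, and alpha, beta and d stand highest; COX4 lies at 0 throughout.

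The ATP synthase genes were the most abundant of the set. The alpha subunit gene BGIBMGA001853, whose product alternates with beta in the catalytic head, measured 828.31, 855.06 and 851.45 FPKM in the 3 A306 libraries. It measured 787.16, 777.43 and 794.68 FPKM in XH and 662.80, 702.38 and 656.93 FPKM in A798. The strains did not overlap, and stood in the order A306, XH, A798. Alpha rose by 0.33 (SE 0.0320, limma adjusted p = 0.000102) in A306 and by 0.22 (SE 0.0320, limma adjusted p = 0.00118) in XH against A798. Relative to the median of all features these changes were 0.02 and 0.03, and after TMM scaling they were -0.04 and -0.02, neither called. The change of 0.10 between A306 and XH (limma adjusted p = 0.0367) was -0.02 after TMM scaling, and the call was lost without A306 replicate 2 or 3 or any XH library, with adjusted p from 0.0668 to 0.111 in limma.

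A beta subunit gene, BGIBMGA012549, differed more between A306 and A798 than alpha did. It measured 748.27, 747.99 and 719.91 FPKM in A306, 559.91, 551.15 and 563.85 FPKM in XH, and 460.81, 464.39 and 468.32 FPKM in A798. Each strain formed its own narrow band: the means were 739 ± 16.3, 558 ± 6.50 and 465 ± 3.76 FPKM (SD, n = 3). It rose by 0.67 in A306 against A798 (SE 0.0263, limma adjusted p = 6.43e-07) and by 0.40 in A306 against XH (SE 0.0263, limma adjusted p = 1.10e-05). Relative to all features those changes were 0.36 and 0.28, and after TMM scaling 0.30 and 0.28, both still called (limma adjusted p = 0.000267 and 0.000345). The rise of 0.26 in XH against A798 (limma adjusted p = 0.00017) was 0.02 after TMM scaling and not called there (limma adjusted p = 0.743).

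The second expressed beta row, BGIBMGA012555, carries the same symbol, ATPSYN-BETA, which belongs to 1 gene in RefSeq (ASM3026992v2), and the division of reads between the rows is not described in the sources used here. It had 314 ± 6.16, 262 ± 2.03 and 235 ± 14.2 FPKM (SD, n = 3) in A306, XH and A798, and the strains did not overlap. It rose by 0.41 in A306 against A798 and by 0.26 against XH (limma adjusted p = 0.000173 and 0.00264). After TMM scaling the former was 0.04 and no longer called and the latter 0.13 and called (limma adjusted p = 0.0207). Its rise of 0.16 in XH against A798 (limma adjusted p = 0.0292) was -0.09 after TMM scaling, and the call was lost without A798 replicate 1 or 3 or any XH library (limma adjusted p from 0.0655 to 0.0822). Summed over the pair, beta reached 1052 ± 21.4 FPKM in A306, 820 ± 6.84 in XH and 700.0 ± 13.3 in A798 (SD, n = 3). The remaining beta row, BGIBMGA003901, did not exceed 0.19 FPKM in any library and was not tested.

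The gamma subunit gene BGIBMGA013965, the central stalk of the enzyme, was listed at 0 in all 3 A306 and all 3 A798 libraries. In XH it measured 145.92, 132.67 and 133.96 FPKM, or 18.5%, 17.1% and 16.9% of the alpha value of the same library. XH thus stood wholly apart from the other strains, which had no value above 0. It passed the filter through those 3 libraries alone, so its values are a description with no test, and no fold change is given, because its size would be set by the pseudocount. It is the 1 row described as an ATP synthase gamma subunit. Whether its listed 0 is an absent transcript or a failed estimate was not tested. Of the 14623 genes, 4334 (29.6%) were at 0 in all 9 libraries. Of all BGIBMGA genes at 0 in every A306 and A798 library, 10 had at least 1 FPKM in each XH library, 2 had at least 10 and 1, this gene, had at least 100. The corresponding counts were 24, 4 and 1 for A306 and 9, 1 and 0 for A798.

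The d subunit gene BGIBMGA011936, part of the peripheral stalk, measured 712.92, 666.87 and 670.16 FPKM in A306, 609.47, 626.84 and 627.82 in XH, and 603.49, 590.23 and 570.95 in A798. The strains did not overlap, but the steps were small beside those of beta. As deposited, d rose by 0.22 in A306 against A798 (SE 0.0360, limma adjusted p = 0.0017), whereas after TMM scaling it fell by 0.15 (limma adjusted p = 0.00448) and after median centring by 0.11 (limma adjusted p = 0.0141). In XH against A798 the change was 0.08 as deposited (limma adjusted p = 0.133) and d fell by 0.17 after TMM scaling (limma adjusted p = 0.00378). Its rise of 0.14 in A306 against XH (limma adjusted p = 0.0193) was lost without A306 replicate 1 or XH replicate 1 (limma adjusted p = 0.0571 and 0.0696) and under each of the other scalings; after TMM scaling it was 0.01 (limma adjusted p = 0.783).

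The g subunit gene BGIBMGA013511, a small membrane subunit tied to dimers of the enzyme in yeast, had 332 ± 47.6 FPKM in A306, 239 ± 26.5 in XH and 202 ± 16.0 in A798 (SD, n = 3). A306 replicate 3, at 277.37, lay below the other 2 libraries of its strain but above every XH and A798 library. The gene rose by 0.71 in A306 against A798 (SE 0.122, limma adjusted p = 0.00194), the highest change of the called ATP synthase genes in that comparison as deposited; after TMM scaling it was 0.34 (limma adjusted p = 0.0689). Against XH it rose by 0.47 in A306 (limma adjusted p = 0.0176), and the call was lost without A306 replicate 1 or 2 or XH replicate 1 or 3 (limma adjusted p from 0.0600 to 0.0619), after TMM scaling (0.35, limma adjusted p = 0.0654) and under quantile normalization (0.29, limma adjusted p = 0.0811).

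The delta subunit gene BGIBMGA010588, also of the central stalk, was low and scattered, at 20.46, 24.95 and 3.84 FPKM in A306, 10.91, 4.22 and 0 in XH, and 0.67, 4.62 and 0 in A798. The strains overlapped. Its change of 2.72 in A306 against A798 (SE 1.07) did not pass (limma adjusted p = 0.069), and passed without A306 replicate 3 (limma adjusted p = 0.0414), A798 replicate 2 (0.0465) or XH replicate 3 (0.0369).

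In complex III, the entry of electrons from ubiquinol, the core protein gene UQCRC2 (BGIBMGA011710) differed from A798 in both other strains. It measured 83.15, 83.12 and 80.46 FPKM in A306, 79.72, 78.48 and 79.30 in XH, and 52.65, 54.46 and 50.43 in A798. A306 and XH lay close together and far above A798. UQCRC2 rose by 0.64 in A306 (SE 0.0410, limma adjusted p = 1.00e-05) and by 0.58 in XH (SE 0.0410, limma adjusted p = 2.59e-05) against A798. Relative to all features these changes were 0.33 and 0.39, and after TMM scaling 0.27 and 0.34, both called (limma adjusted p = 0.000536 and 0.000198). Between A306 and XH the change was 0.05 as deposited and -0.07 after TMM scaling (limma adjusted p = 0.352 and 0.18).

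The Rieske iron-sulphur protein of the same complex is not caught by the words of the rule and is given for comparison. Of its 2 rows, BGIBMGA000732 was at 0 throughout and BGIBMGA003066 had 148 ± 6.63, 131 ± 2.15 and 115 ± 3.88 FPKM (SD, n = 3) in A306, XH and A798. BGIBMGA003066 rose by 0.36 in A306 and 0.18 in XH against A798 (limma adjusted p = 0.000372 and 0.0147), and these changes were -0.01 and -0.06 after TMM scaling, neither called. The call in XH was also lost without XH replicate 3 (limma adjusted p = 0.0535).

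Complex I, which takes electrons from NADH, was represented by accessory subunits and by a gene described only as NADH-ubiquinone reductase. NDUFB10 (BGIBMGA007267), the most abundant, measured 147.31, 149.69 and 135.69 FPKM in A306, 129.27, 115.99 and 130.75 in XH, and 109.84, 121.08 and 101.46 in A798. A306 lay above both other strains, which overlapped. NDUFB10 rose by 0.38 in A306 against A798 (SE 0.0775, limma adjusted p = 0.00467); relative to all features this was 0.07, and after TMM scaling the change was 0.01 and not called. Its changes of 0.18 in XH against A798 and 0.20 in A306 against XH did not pass (limma adjusted p = 0.119 and 0.0781), and both passed without A798 replicate 2 (limma adjusted p = 0.0472 and 0.0497).

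NDUFA2, also called B8 (BGIBMGA003301), had 111 ± 24.6 FPKM in A306, 61.6 ± 10.6 in XH and 71.0 ± 15.7 in A798, and NDUFC2 (BGIBMGA010351) had 45.7 ± 6.05, 30.3 ± 7.44 and 36.6 ± 1.33 (SD, n = 3). For both, XH and not A798 had the lowest mean, unlike the ATP synthase genes. In A306 against XH, NDUFA2 rose by 0.83 (limma adjusted p = 0.0199) and by 0.71 after TMM scaling (limma adjusted p = 0.0477). That call was lost without A306 replicate 1 or 2 or XH replicate 1 or 2 (limma adjusted p from 0.0527 to 0.0681). NDUFC2 rose by 0.60 in the same comparison (limma adjusted p = 0.0311), which was lost after TMM scaling (0.48, limma adjusted p = 0.0734) and without A306 replicate 1 or 2 (limma adjusted p = 0.1 and 0.0755). Its change of 0.31 in A306 against A798 (limma adjusted p = 0.194) passed without XH replicate 2 (limma adjusted p = 0.0351) and was -0.06 after TMM scaling. Against A798 the NDUFA2 rise of 0.64 in A306 (limma adjusted p = 0.0447) rested on overlapping libraries, with 83.72 FPKM in A306 replicate 3 and 85.09 in A798 replicate 3. It was lost without A306 replicate 1 or 2, A798 replicate 1 or 2, or XH replicate 1 (limma adjusted p from 0.0628 to 0.132), and held in 9 of 24 alternatives.

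The gene described only as NADH-ubiquinone reductase (BGIBMGA011870) ran the other way by mean. It measured 0, 10.97 and 1.13 FPKM in A306, 10.38, 3.58 and 4.90 in XH, and 12.13, 6.32 and 11.66 in A798. A306 replicate 2 lay within the range of A798, while the other 2 A306 libraries lay below every library of the other strains. The change of -1.86 against A798 (SE 0.834) did not pass (limma adjusted p = 0.103), and without A306 replicate 2 it was -2.87 and passed (limma adjusted p = 0.00395); against XH it was then -2.21 (limma adjusted p = 0.015).

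Complex IV passes electrons to oxygen. The COX6A gene (BMO.3567, BGIBMGA005511) measured 121.88, 164.38 and 165.37 FPKM in A306, 174.13, 89.23 and 157.11 in XH, and 125.70, 54.66 and 127.02 in A798. Replicate 2 was the low library in XH and in A798 but not in A306, and all strains overlapped. No comparison passed: the changes were 0.63 in A306 and 0.49 in XH against A798 (limma adjusted p = 0.196 and 0.362) and 0.15 between A306 and XH (limma adjusted p = 0.796), the last of which was -0.15 without XH replicate 2. COX4 (BGIBMGA013680) was listed at 0 in all 9 libraries.

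**Figure D2:**
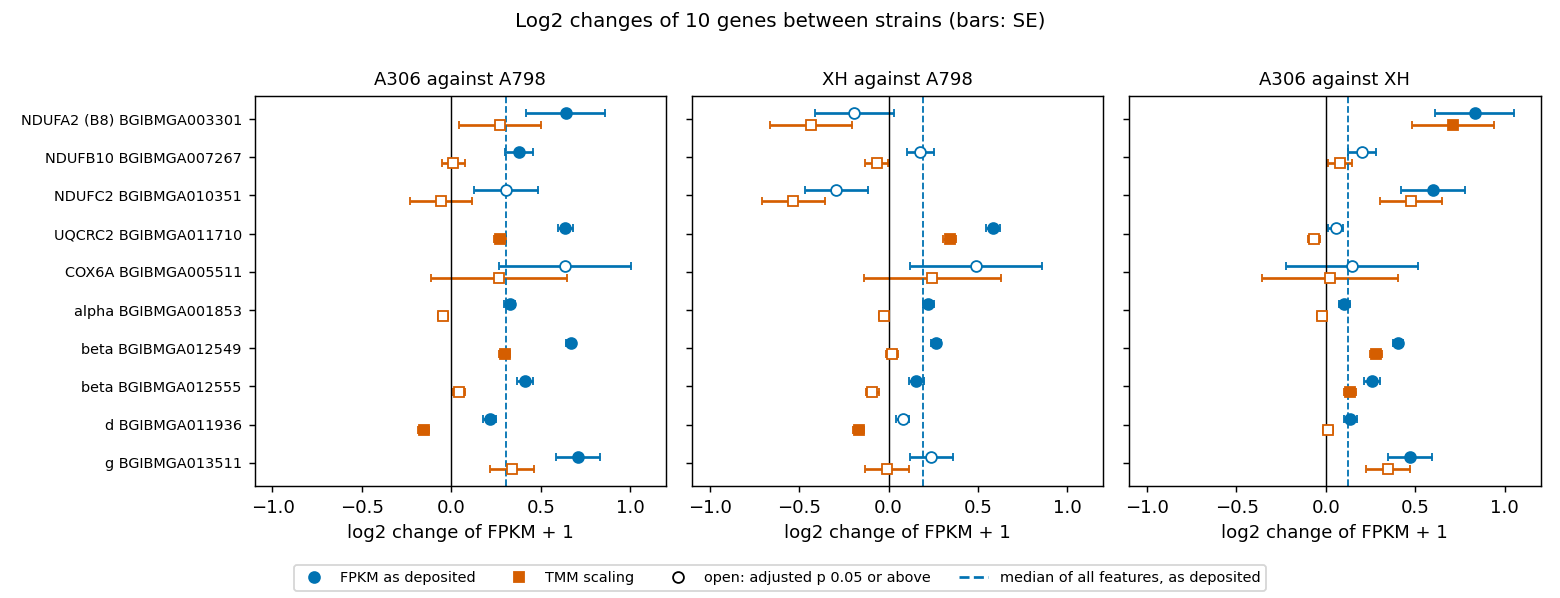
Log2 change of FPKM + 1 (x axis) of the 10 genes above 0 in every library with a mean of at least 20 FPKM, in each comparison, as deposited (circles) and after TMM scaling (squares); bars are SE, filled symbols have an adjusted p below 0.05, and the dashed line is the median of all features as deposited. UQCRC2 and beta BGIBMGA012549 stay to the right of 0 in A306 against A798 on both scales, while subunit d goes from 0.22 to -0.15.

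Counting the separation of libraries, 6 of the 13 tested genes had A306 above XH above A798 with no overlap between any strains: alpha, both beta rows, d, g and UQCRC2. Over all features tested 8.99% had that pattern on the deposited scale. By means alone 9 of 13 stood in that order, beside 35.6% of all features. In A306 against A798, 8 of 13 lay wholly higher and 0 wholly lower, beside 45.4% and 11.3% of all features. In XH against A798 the counts were 7 and 1, beside 34.9% and 11.4%, and in A306 against XH 9 and 1, beside 32.1% and 18.0%. The gamma gene, which passed the filter through its XH values alone, had to separate there. It is 1 of the 7 wholly higher in XH against A798 and the 1 wholly lower in A306 against XH. The deposited scale, higher in A306 than in A798 for the median feature, enters these counts.

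The 10 genes above 0 in every library with a mean of at least 20 FPKM summed to 3447 ± 102 FPKM in A306, 2904 ± 53.0 in XH and 2537 ± 37.0 in A798 (SD, n = 3). Of the FPKM outside the 20 most abundant features, they took 0.952% ± 0.0168, 0.861% ± 0.0108 and 0.800% ± 0.0095, again with no overlap. That share does not remove the difference in scale. With equal sums outside those 20, the median change of all features was still 0.15 for A306 against A798. It was 0.12 for XH against A798 and 0.04 for A306 against XH. The sum was mostly ATP synthase, at 2913 ± 74.5, 2467 ± 23.2 and 2164 ± 46.7 FPKM. The complex I members among them summed to 301 ± 36.5, 217 ± 25.4 and 218 ± 6.39 FPKM, so that XH and A798 overlapped there.

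Ratios within a library do not depend on its scale, and some of them differed between strains without overlap of libraries. With 3 libraries against 3, the exact test given below could not pass any of them. Alpha per beta BGIBMGA012549 was 1.11, 1.14 and 1.18 in A306, 1.41 in all 3 XH libraries, and 1.44, 1.51 and 1.40 in A798. A306 lay below both other strains, which overlapped. With both beta rows summed, alpha per beta was 0.803 ± 0.0239 in A306, 0.958 ± 0.00295 in XH and 0.963 ± 0.0169 in A798 (SD, n = 3). The ratio of BGIBMGA012549 to BGIBMGA012555 was 2.36 ± 0.0332, 2.13 ± 0.0296 and 1.98 ± 0.124, highest in A306 without overlap.

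UQCRC2 was 9.74% ± 0.295 of alpha in A306, 10.1% ± 0.0781 in XH and 7.79% ± 0.137 in A798 (SD, n = 3), so that A798 lay below the others without overlap. Subunit d per alpha was 0.809 ± 0.0447, 0.790 ± 0.0160 and 0.873 ± 0.0353, and XH and A798 did not overlap. NDUFB10 was 17.1% ± 0.996, 15.9% ± 0.877 and 16.4% ± 0.907 of alpha, and g per alpha was 0.394 ± 0.0589, 0.304 ± 0.0371 and 0.300 ± 0.0295. All strains overlapped in both. Over 7 ratios and 3 comparisons, 21 in all, the exact two-sided permutation test gave 0.1 where strains did not overlap, the smallest p that 3 against 3 allows, and at least 0.233 after Benjamini-Hochberg adjustment, so none passes.

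**Figure D3:**
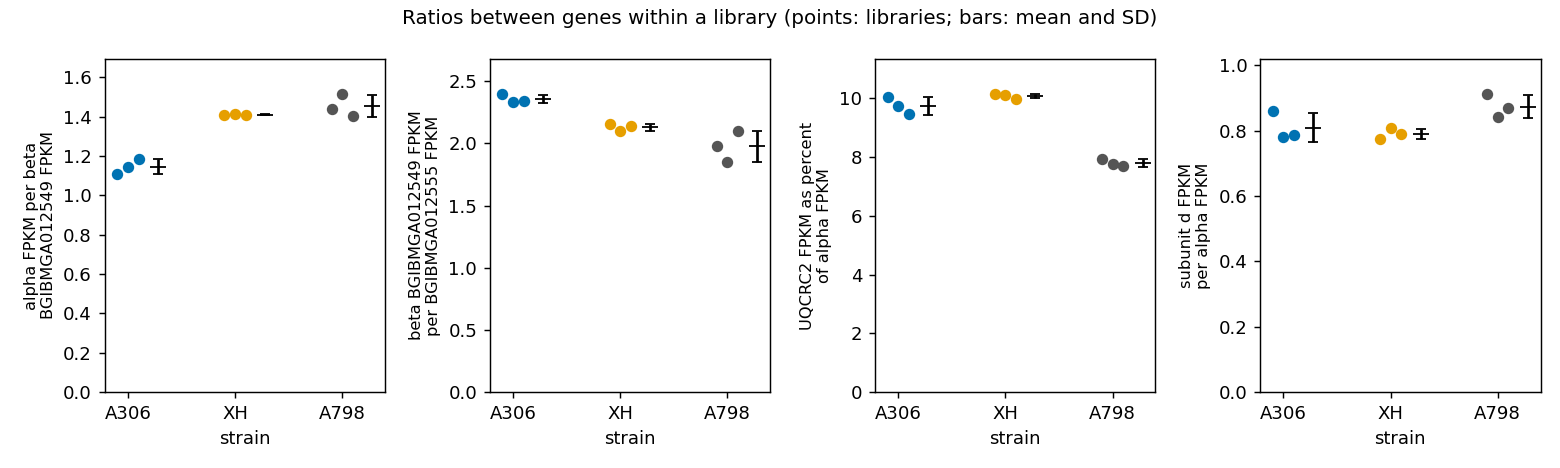
Ratios of FPKM between genes of the same library (points) with the mean and SD of each strain (bars, n = 3); y axes start at 0. Alpha per beta BGIBMGA012549 is lowest in A306 (1.14 ± 0.0379) and UQCRC2 as a percentage of alpha is lowest in A798 (7.79% ± 0.137).

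Other named genes of the mitochondrion and of energy metabolism moved unevenly. The TCA cycle is a source of NADH for complex I. Among the 7 tested genes matched to it are isocitrate dehydrogenase rows described as [NADP], which make NADPH and enter the counts. Of the 7, 4 rose and 2 fell in A306 against A798, and 5 rose and 0 fell in XH against A798 (6 and 0 at an unadjusted p under 0.05). In A306 against XH, 2 rose and 2 fell (limma). The shares of all features called higher and lower were 37.9% and 9.60%, 25.7% and 8.02%, and 23.1% and 13.4%, which also stand beside the counts of the lists that follow. After TMM scaling the TCA cycle counts were 2 and 3, 4 and 1, and 1 and 3, where the shares of all features were 16.5% and 17.2%, 13.3% and 14.5%, and 16.8% and 16.0%. The medians as deposited were 0.27, 0.45 and -0.01. Of the citrate synthase rows, BGIBMGA014294 measured 14.93, 20.22 and 17.92 FPKM in A306, 57.08, 60.63 and 53.73 in XH, and 35.26, 40.02 and 36.89 in A798. It fell by 1.05 in A306 (limma adjusted p = 0.00013) and rose by 0.60 in XH (limma adjusted p = 0.00372) against A798, the first of which is opposite in sign to the changes of alpha, beta and UQCRC2 as deposited. Both calls held in 24 of 24 alternatives. The other citrate synthase row, BGIBMGA000672 (BMO.2204), had 50.2 ± 6.90, 57.4 ± 3.06 and 41.9 ± 9.83 FPKM (SD, n = 3) in A306, XH and A798. Its change in A306 against A798 was 0.27 (limma adjusted p = 0.2) and -0.09 after TMM scaling, and it passed as deposited without A798 replicate 2 (limma adjusted p = 0.017), so the fall rests on 1 of the 2 rows. The isocitrate dehydrogenase gene BGIBMGA007586, which makes NADPH, rose by 0.88 in A306 and 0.54 in XH against A798 (limma adjusted p = 6.24e-06 and 0.000133), and both calls held in 24 of 24 alternatives. A second row with that description, IDH (BGIBMGA006907), fell by 0.27 in A306 against A798 (limma adjusted p = 0.00803), fell by 0.72 against XH (limma adjusted p = 5.27e-05) and rose by 0.45 in XH against A798 (limma adjusted p = 0.000951), and these calls too held in 24 of 24 alternatives.

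Of 3 mitochondrial ribosomal protein genes, MRPS25 and MRPS10 rose in A306 against A798 by 1.08 and 1.21 (limma adjusted p = 0.000443 and 0.00526), and both calls held in 24 of 24 alternatives. The remaining gene, MRPS12, was low, with means of 0.65, 0.607 and 2.38 FPKM in A306, XH and A798. Its changes against A798, -0.87 in A306 and -0.89 in XH, did not pass (limma adjusted p = 0.379 and 0.419). Lower counts were seen elsewhere: 1 rose in XH against A798 and 1 in A306 against XH, and 0 in either after TMM scaling (1 in each at an unadjusted p under 0.05), with none falling (0). Of 2 prohibitin genes, which encode scaffolds of the inner membrane, BGIBMGA008312 rose in A306 and XH against A798 by 0.67 and 0.48 (limma adjusted p = 2.59e-05 and 0.000247), and both calls held in 24 of 24 alternatives. The other, BGIBMGA006158, had changes of 0.74 and 0.91 there that did not pass (limma adjusted p = 0.138 and 0.0983).

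Of 6 tested genes matched as glycolysis, among them a transaldolase of the pentose phosphate pathway, 3 rose and 1 fell in A306 against A798, 2 rose and 0 fell in XH against A798 (3 and 0 unadjusted), and 1 rose and 2 fell in A306 against XH (limma). After TMM scaling the counts were 0 and 3, 1 and 1, and 1 and 2. The gene that fell in A306 was glucose-6-phosphate isomerase, BGIBMGA004221, at 53.7 ± 1.21 FPKM against 113 ± 3.61 in A798 (SD, n = 3; change -1.06, limma adjusted p = 4.09e-07).

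Of 3 genes that pass phosphate between nucleotides, 2 rose and 0 fell in A306 against A798 (2 and 0 unadjusted), 2 rose and 0 fell in XH against A798 (2 and 0 unadjusted), and 1 rose and 1 fell in A306 against XH (limma). After TMM scaling the counts were 2 and 1, 0 and 1 (1 and 1 unadjusted), and 1 and 1. Adenylate kinase ADK2 rose by 0.57 in A306 against A798 and by 0.70 against XH (limma adjusted p = 0.000281 and 0.000102), and both calls held in 24 of 24 alternatives. The far more abundant nucleoside diphosphate kinase BGIBMGA007701, at 3361 ± 149.7, 4150 ± 109.6 and 3523 ± 54.6 FPKM (SD, n = 3) in A306, XH and A798, fell by 0.31 in A306 against XH (limma adjusted p = 0.000353), a call that held in 24 of 24 alternatives. The list for mitochondrial carriers held 1 carrier homolog and 1 mismatched aquaporin, so it is not summarised.

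Of 4 tested genes of the vacuolar proton pump, a relative of the ATP synthase that spends ATP, 1 rose and 1 fell in A306 against A798, 0 rose and 2 fell in XH against A798 (0 and 2 unadjusted), and 1 rose and 1 fell in A306 against XH (limma). After TMM scaling these were 0 and 2, 0 and 3, and 1 and 2.

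**Figure D4:**
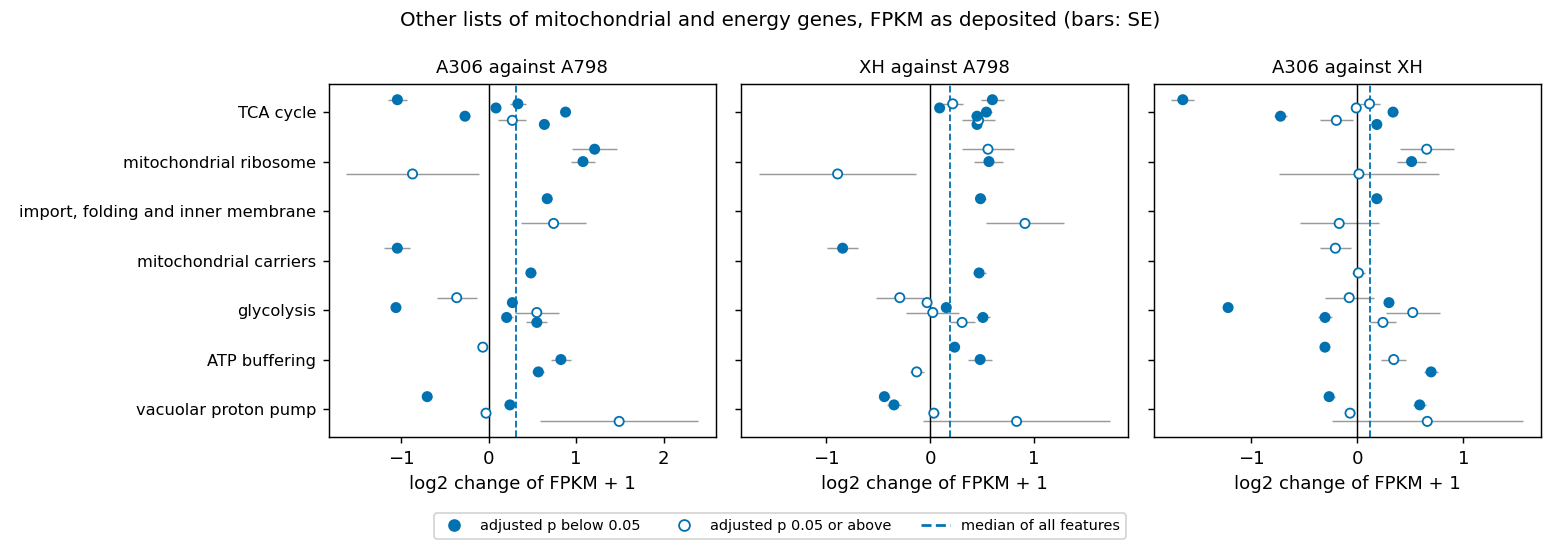
Log2 change of FPKM + 1 as deposited (x axis) of tested genes in 7 other lists, 1 point per gene with its SE; filled points have an adjusted p below 0.05 and the dashed line is the median of all features. The TCA cycle point at -1.05 in A306 against A798 is citrate synthase BGIBMGA014294, which stands at 0.60 in XH against A798.

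Markers of other tissues moved with the strains as well. Over 15 fat body and haemolymph protein genes, 9 of them tested, the summed level ranged from 26.4 to 28.5 FPKM in A306, from 776 to 808 FPKM in XH and from 298 to 319 FPKM in A798, with 1, 0 and 2 genes at 0. Over 5 muscle genes, 3 of them tested, the sum ranged from 72.1 to 81.7 FPKM in A306, from 68.7 to 72.7 FPKM in XH and from 38.5 to 44.0 FPKM in A798, with none (0) at 0 in a whole strain. Most of it was the actin gene A1, at 69.23, 76.70 and 72.64 FPKM in A306 and 38.95, 40.74 and 34.98 in A798, and troponin C was at 0 in 2 libraries of each of these strains. Over 3 haemocyte genes, 2 of them tested, the sum was 2.32 to 3.23, 6.48 to 7.03 and 2.02 to 2.60 FPKM. The muscle sum, set mostly by A1, ran as UQCRC2 did, with A306 and XH above A798. The other muscle genes were low and did not all run alike. Tropomyosin-1, which was not tested, had means of 0.87, 1.21 and 0.287 FPKM in A306, XH and A798. Its A798 libraries lay below every library of the other strains, as for A1. MLC-2 had means of 0.677, 3.41 and 0.243 FPKM in A306, XH and A798, and A306 was not called apart from A798 (limma adjusted p = 0.216). Myosin light polypeptide 9 had means of 2.87, 3.94 and 3.25 FPKM in the same order. The fat body sum was highest in XH, as gamma was, but differed more between A306 and A798, where gamma was at 0 in both. Their part in these results was not tested. Gland weight was lowest in A306 and highest in A798, the reverse of the order of the summed ATP synthase FPKM as deposited (after TMM scaling, alpha was at -0.04 and d at -0.15 in A306 against A798), and since each strain has its own weight, weight and strain cannot be told apart.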

How the data were processed

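RNA of 9 silk gland libraries (3 strains, 3 each) was measured. The authors deposited FPKM values to 2 decimals; per the submitters' processing notes, DESeq2 1.24.0, StringTie 1.3.3b and fastp 0.19.5 were used, and no aligner, genome build or annotation is given in the sources used here. FPKM hold no counts, so depth is unknown, no counting interval can be given and no count test was run. A second deposited table, named for raw counts, holds the same FPKM for 5 genes (largest difference 0). In each table, 3 columns of strain means were not used. No identifier (0) matched RefSeq and no genome was given, so positions and sequences are not reported; 4 of the 5 symbols among the members were found there.

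Strain means were fitted to all 9 libraries with limma 3.58.1 (R 4.3.3, intensity trend, two-sided) on log2(FPKM + 1). Features needed at least 1 FPKM in at least 3 libraries, which kept 4636. The pseudocount understates changes of low genes. The labels do not tie libraries to separate animals, so p-values reflect only how far these samples spread, possibly for technical reasons; replicates correlated across features at 0.961 to 0.966. The procedure was tested on simulated data.

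All members are accounted for. Given in full by rule were the 2 genes the choice of the set names, members called with a log2 change of at least 1, the 3 most abundant and the most abundant of each complex. Other genes named were chosen after their values were seen. Members and lists were chosen with earlier results of these data known. Alternatives were pseudocounts of 0.1 and 5, other filters, TMM (an unweighted trimmed mean of log ratios), median centring, equal sums outside the 20 most abundant features, quantile normalization, ENSRNA features (24 of those tested) dropped with the rest rescaled to 1 common sum, fits of 2 strains, no trend, a replicate block and leaving out libraries. Chosen after seeing the data were dropping features at 0 in a whole strain and dropping replicate 2 of A798 and XH together.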

Additional observations from a re-analysis of the deposited data

How the results depend on the processing

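Values below are for A306 against A798, XH against A798 and A306 against XH. Members called higher (8, 5 and 7) were 2, 2 and 3 under TMM, 3, 2 and 4 under median centring, 4, 3 and 2 under quantile normalization, 5, 4 and 4 with equal sums, 5, 4 and 4 without ENSRNA features, and 4 in the last comparison without replicate 2 of A798 and XH. Members called lower (0, 0 and 1) were 1, 1 and 1 under TMM and 2, 1 and 1 under median centring, where shifted zeros put gamma among them. They were 0 in the last without features at 0 in a whole strain, which drops gamma, and 0 without replicate 2 of both strains, where 962 features were called in XH against A798. Leaving out 1 library gave 7 to 9, 3 to 6 and 3 to 8 members higher, 0 to 1, 0 to 0 and 0 to 2 lower, and 1819 to 2139, 1167 to 1504 and 1341 to 1688 features called.

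Signs turned as follows. In A306 against A798: NDUFC2 -0.056 (TMM), -0.020 (median centring) and -0.025 (quantile), alpha -0.044 (TMM), d -0.15, -0.11 and -0.079 in that order, Rieske BGIBMGA003066 -0.012 (TMM), citrate synthase BGIBMGA000672 -0.094 (TMM), -0.056 (median centring) and -0.068 (quantile). In XH against A798, under TMM and median centring: NDUFB10 -0.067 and -0.061, alpha -0.024 and -0.016, beta BGIBMGA012555 -0.090 and -0.083, d -0.17 and -0.16 (and -0.010 with equal sums, -0.020 under quantile), Rieske BGIBMGA003066 -0.061 and -0.055, glucose-6-phosphate isomerase BGIBMGA004221 -0.089 and -0.083, nucleoside diphosphate kinase BGIBMGA007701 -0.011 and -0.0031; g was -0.0067 under TMM. The members' median relative to all features was there -0.011 with a pseudocount of 0.1, -0.022 under TMM and -0.030 to 0.029 with 1 library left out, lowest without XH replicate 1. In A306 against XH: UQCRC2 -0.068 (TMM), -0.032 (median centring), -0.047 (equal sums), -0.098 (quantile) and -0.064 (no ENSRNA), COX6A -0.0065 (quantile), -0.15 to 0.33 with 1 library left out (lowest without XH replicate 2) and -0.15 without replicate 2 of A798 and XH, alpha -0.020 (TMM) and -0.016 (no ENSRNA), d -0.059 and Rieske BGIBMGA003066 -0.0084 (quantile). The cause was not tested beyond the scalings' own shift of all features.

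Replicate numbers recur across strains. Same-numbered pairs (9) correlated at 0.0004 to 0.0626 and other pairs (18) at -0.0927 to 0.0363. In neither group did any (0) exceed 0.1, the level set for pairing samples by number, and the main fit holds no term for the number. Still, 8 of 9 libraries correlated best with a library of their own number. Whether the numbers mark a shared factor was not tested. With the replicate block, 8, 5 and 6 members were higher, 0, 0 and 1 lower, and 2080, 1388 and 1589 features called. It added delta in A306 against A798 (limma adjusted p = 0.0116) and removed NDUFA2 there (0.0768) and alpha in A306 against XH (0.0664).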
